A study of Mus musculus with 2 samples.

Results

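The 10 genes described here encode proteins that bind, protect and store messenger RNA in male germ cells. They were taken by name from the rows of both count tables, 10 of 36547 genes listed in either. The rule used no measured value, but the members were chosen with earlier results of these data known. Pabpc1, Pabpc2, Pabpc4 and Pabpc6 are cytoplasmic poly(A) binding proteins, Paip2 is the inhibitor of these proteins, Ybx1, Ybx2 and Ybx3 are Y-box proteins, and Dazl and Boll belong to the DAZ family. The study compared testes of 12-week-old C57BL/6 mice, wild-type (WT) or homozygous for loss of Alkbh5 (Alkbh5-/-, KO), the enzyme that removes the methyl mark N6-methyladenosine from RNA. Alkbh5 was inactivated in the whole body, so germ cells and the somatic cells around them both lacked it. Whole testis was dissociated and 1 single-cell library was made per genotype. The introduction speaks of a single mouse per genotype and the methods of several, so a library may pool animals. With 1 library per genotype there is no replicate check, no test between the genotypes was possible, and every interval given covers counting error only.

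Transcription stops as the spermatid nucleus condenses, so a late spermatid makes protein from messages transcribed earlier and kept in ribonucleoprotein particles. Y-box proteins coat these messages through their cold shock domain, poly(A) binding proteins hold the tail and promote translation, Paip2 holds them back, and DAZL and BOLL recruit poly(A) binding proteins to chosen messages. DAZL acts from the germ cell precursors into meiosis, BOLL from meiosis into the spermatid, and the Y-box protein YBX2 (MSY2) is known for being required for sperm formation.

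The Y-box genes had the largest ratios between the libraries among the stages past the size criterion given below, and the stretch most alike in their coding sequences is shown so that the paralogs can be told apart. Ybx1 lies on chromosome 4 from 119277981 to 119294604 on the minus strand, Ybx2 on chromosome 11 from 69935796 to 69941605 on the plus strand and Ybx3 on chromosome 6 from 131364855 to 131388476 on the minus strand (GENCODE vM21, GRCm38). The stretch is 90 coding bases long, within the cold shock domain, and capitals mark the 20 positions at which the 3 genes are not all the same. It runs from coding base 181 to 270 in Ybx1, from 295 to 384 in Ybx2 and from 259 to 348 in Ybx3.
Ybx1: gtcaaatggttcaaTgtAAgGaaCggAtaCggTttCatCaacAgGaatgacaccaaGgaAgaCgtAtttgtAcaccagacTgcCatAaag
Ybx2: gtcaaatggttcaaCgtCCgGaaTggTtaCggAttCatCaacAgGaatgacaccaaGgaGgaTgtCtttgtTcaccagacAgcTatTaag
Ybx3: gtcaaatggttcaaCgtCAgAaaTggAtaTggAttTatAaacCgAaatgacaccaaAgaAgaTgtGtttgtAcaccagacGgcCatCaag
Over the aligned coding bases, Ybx1 was 70.7% identical to Ybx2 and 72.4% identical to Ybx3, and Ybx2 was 68.2% identical to Ybx3. Counted reads come from near the 3′ end. No word of 100 bases from the last 500 bases of any Ybx2, Ybx3, Dazl, Boll, Pabpc2, Pabpc6 or Paip2 transcript occurred in a transcript of another gene. For Ybx1 2.97% of such words also occurred in the pseudogene Ybx1-ps2, which had 40 unique molecular identifiers (UMIs, single captured RNA molecules) in the WT and 24 in the KO library. With words of 50 bases the share was 11.6% for Ybx1 over 6 genes and 15.4% for Pabpc1 over 270. It was 57.5% for Pabpc4 over 11 genes, 3.03% for Paip2 over 92 and 0% for the other members. With words of 100 bases the share was 4.56% for Pabpc1 and 37.8% for Pabpc4, so Pabpc4 counts are uncertain.

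The promoters of the Y-box genes are shown next, because Y-box proteins were named for binding the CCAAT box and because Ybx1 and Ybx3, but not Ybx2, were higher in the late spermatids of the KO library. The windows are from RefSeq (GRCm38.p6), 250 bases before to 50 after an annotated start, 5′ to 3′ on the strand of the gene, and capitals mark CCAAT or its other strand, ATTGG. They are chr4:119294464-119294763 for Ybx1, chr11:69935649-69935948 for the upstream window of Ybx2 and chr6:131388401-131388700 for Ybx3.
Ybx1: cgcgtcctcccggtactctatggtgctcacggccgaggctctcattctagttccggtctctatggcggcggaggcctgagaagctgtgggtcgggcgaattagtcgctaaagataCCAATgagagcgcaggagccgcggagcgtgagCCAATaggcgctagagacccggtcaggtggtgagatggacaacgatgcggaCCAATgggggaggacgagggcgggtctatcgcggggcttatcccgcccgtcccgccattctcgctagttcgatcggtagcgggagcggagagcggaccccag
Ybx2: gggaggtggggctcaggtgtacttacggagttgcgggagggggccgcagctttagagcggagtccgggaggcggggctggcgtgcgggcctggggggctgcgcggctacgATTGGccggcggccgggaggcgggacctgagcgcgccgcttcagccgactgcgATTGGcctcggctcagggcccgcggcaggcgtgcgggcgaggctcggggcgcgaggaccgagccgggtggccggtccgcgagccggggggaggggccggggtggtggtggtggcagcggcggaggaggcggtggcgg
Ybx3: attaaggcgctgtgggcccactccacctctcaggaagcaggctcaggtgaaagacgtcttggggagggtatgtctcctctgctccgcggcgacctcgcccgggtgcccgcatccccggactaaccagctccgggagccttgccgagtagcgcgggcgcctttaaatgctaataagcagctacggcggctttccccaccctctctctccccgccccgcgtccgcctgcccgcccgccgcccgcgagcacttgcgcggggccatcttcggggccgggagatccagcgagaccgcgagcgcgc
The Ybx1 window held 3 matches, the upstream Ybx2 window 2 and the Ybx3 window 0. The other Ybx2 window, chr11:69936078-69936377, held 0. Of all 32851 promoter windows, 37.4% held at least 1 match. Among the members 6 had a window in the table, and the Dazl window and 1 of the Boll windows held 1 match each. The other Boll window and the Pabpc4 window held 0. A match describes the letters alone.

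The WT library held 5756 barcodes and the KO library 7012, with a median of 10905.5 and 9117.5 UMIs per barcode. A total of 45 barcode sequences occurred in both libraries and were treated as separate cells. Alkbh5 had 607 UMIs in WT and 5 in KO, as the labels require. Cells were clustered on genes other than the members and named from markers, which gave 12 germ cell clusters and 4 somatic ones. From early to late these were spermatogonia-like, early spermatocyte-like and late spermatocyte-like cells, early round spermatid-like clusters 9 and 6, and mid round, late round and elongating spermatid-like cells. Clusters 9 and 6 are kept apart because a marker of another class, but none of their own, was among their leading genes. The stages with the fewest WT cells were spermatogonia-like (156 WT and 916 KO cells) and early spermatocyte-like cells (65 and 265), and elongating spermatid-like cells numbered 2426 and 1321. Markers of other cells differed between the libraries. In elongating spermatid-like cells the 10 Leydig-like markers summed to 27.3 UMIs per 1000000 (CPM) in WT and 161 CPM in KO with all 10 detected in both, and the 12 Sertoli-like markers to 8.50 and 52.5 CPM, with Sox9 and Gata4 at 0 in WT. In late spermatocyte-like cells the protamine gene Prm1, a message of elongating cells, was at 5972 CPM in WT and 2466 CPM in KO. In cluster 9 the late spermatocyte-like markers summed to 21172 CPM in WT and 21496 CPM in KO. The early round spermatid-like ones summed to less there, 19959 and 20902 CPM, so the name of cluster 9 is uncertain. All levels below are CPM, the summed UMIs of a gene per 1000000 UMIs of the stage, and levels are compared between stages and genotypes of a gene and not between genes.

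**Figure D1:**
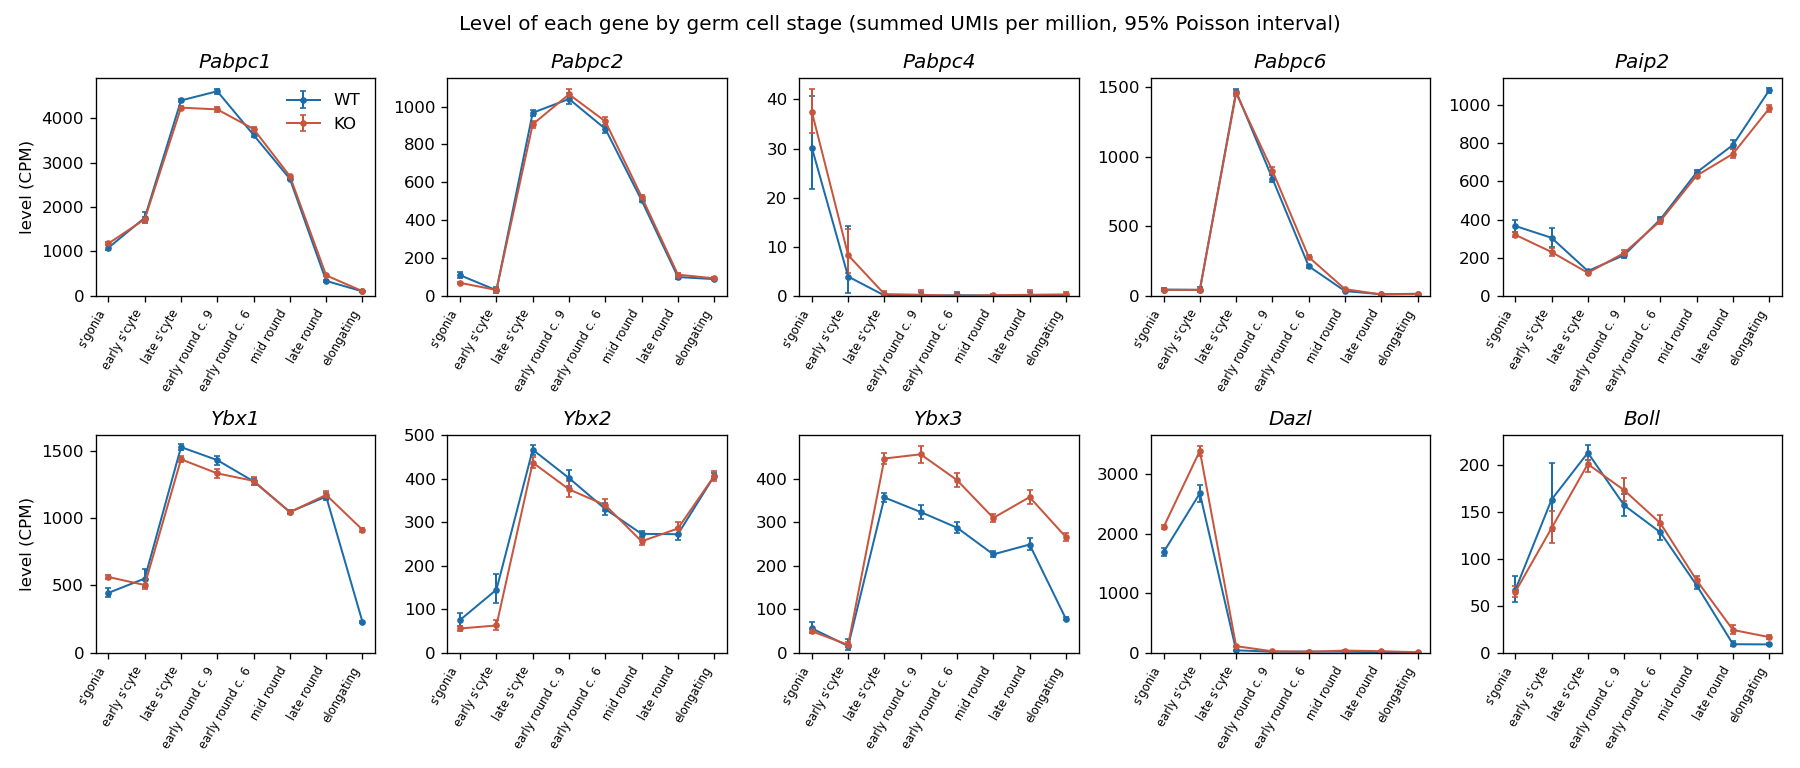
Level of each of the 10 genes in CPM (vertical axis, from 0) in 8 germ cell stages (horizontal axis), in the WT library (blue) and the KO library (red), with exact Poisson 95% intervals. Ybx1 and Ybx3 separate in the elongating spermatid-like cells, at 230 against 913 and 78.2 against 266 CPM, while Paip2 climbs from the late spermatocyte-like cells on in both libraries.

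A gene is called higher or lower in KO only past a size criterion, namely that 25% or more of the cells of one library carried a UMI and that the natural log of the mean per 10000 UMIs, with 1 added, differed by 0.25 or more. The 6 pairs of a member and a stage that were higher in KO were Ybx1 in elongating spermatid-like cells, Ybx3 in 4 stages and Dazl in late spermatocyte-like cells, and the 1 lower was Ybx2 in early spermatocyte-like cells, of 80 pairs in all. Among all genes tested, the criterion in either direction was passed by 3.45% in spermatogonia-like cells (members 0 of 7 with enough cells), 8.5% in early spermatocyte-like (1 of 6), 1.92% in late spermatocyte-like cells (1 of 9), 1.34% in cluster 9 (1 of 8) and 2.34% in cluster 6 (1 of 8). It was passed by 3.75% in mid round (0 of 9), 5.07% in late round (1 of 7) and 11.7% in elongating spermatid-like cells (2 of 6). The shares of members are from few genes, and the elongating stage is also the one with the highest share of all genes past the criterion. There the split of all genes was 224 higher and 55 lower, which the TMM factor (a trimmed mean scaling between the libraries), a log2 shift of 0.31, turned to 106 and 287. Under it Ybx1 was at 1.68 and Ybx3 at 1.46, against a median of all genes of -0.21, and both were past the criterion there as well.

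**Figure D2:**
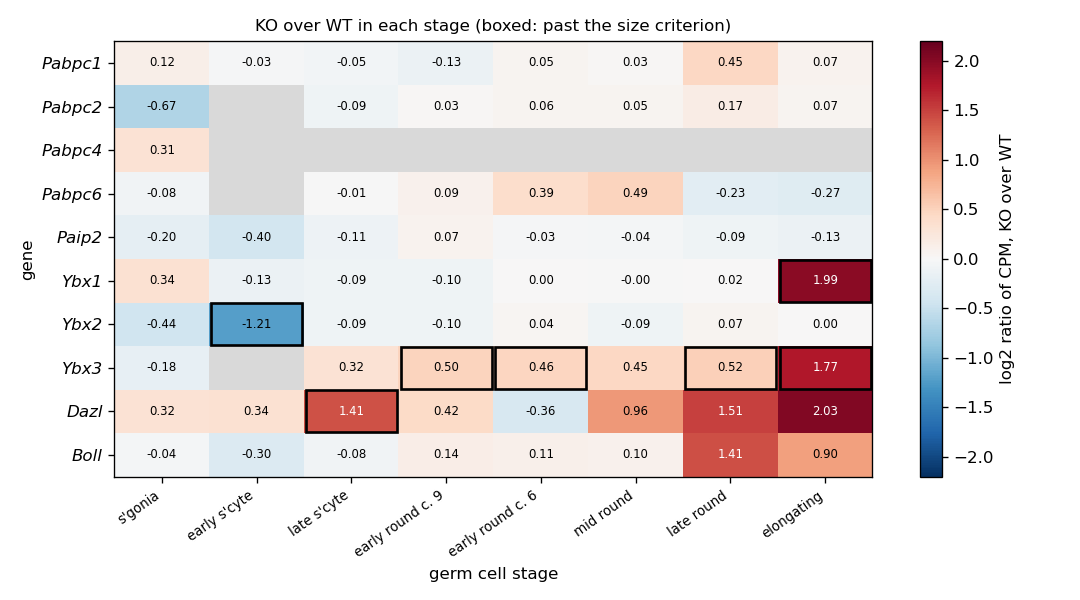
Log2 ratio of CPM, KO over WT, for each gene (rows) in each germ cell stage (columns), in colour from blue (lower in KO) to red (higher in KO) with the value printed. Pairs with under 100 UMIs in both libraries together are grey, and black boxes mark the 7 pairs past the size criterion, 6 higher and 1 lower in KO, of which 5 are Y-box genes that were higher.

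The poly(A) binding proteins had distinct stages in both libraries. For Pabpc1, the general poly(A) binding protein, the WT levels were 1081 CPM in spermatogonia-like cells, 1757 and 4397 CPM in early and late spermatocyte-like cells and 4603 CPM in cluster 9. It was then at 3620 CPM in cluster 6, 2632 in mid round, 335 in late round and 100.3 in elongating spermatid-like cells, which is 2.18% of its highest stage. The KO values in the same order were 1179, 1722, 4235, 4195, 3753, 2692, 459 and 105 CPM. The libraries thus ran close together, and the widest log2 ratio of KO over WT, in late round spermatid-like cells, was 0.45 (0.36 to 0.55). Pabpc1 passed the criterion in 0 of 8 stages.

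Pabpc2 and Pabpc6 are testis poly(A) binding proteins encoded by a single exon, and their coding bases were 83.7% and 83.9% identical to Pabpc1. Pabpc2 was at 109, 29.4, 967 and 1040 CPM in WT from spermatogonia-like cells to cluster 9, and at 882, 505, 99.4 and 88.2 CPM from cluster 6 to elongating spermatid-like cells. In KO it was at 68.5, 30.9, 907, 1065, 922, 524, 112 and 92.4 CPM. As for Pabpc1, its high stages were the late spermatocytes and cluster 9, but it was lower before them, at 10.5% of its highest WT stage in spermatogonia-like cells against 23.5% for Pabpc1. Pabpc6, on chromosome 17 from 9666495 to 9669717, was highest in late spermatocyte-like cells, at 1467 CPM in WT and 1454 CPM in KO. It was at 842 and 898 CPM in cluster 9, 213 and 278 in cluster 6, 34.1 and 47.9 in mid round, 11.5 and 9.73 in late round and 14.7 and 12.2 CPM in elongating spermatid-like cells. The log2 ratio was 0.39 (0.29 to 0.48) in cluster 6 and 0.49 (0.34 to 0.64) in mid round spermatid-like cells. Neither gene passed the criterion in any of the 8 stages. The Pabpc6 window was thus the narrowest of the 3, being above 50% of its highest step in 3 of 20 steps of a germ cell order against 7 for Pabpc2 and 9 for Pabpc1, in each library.

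Pabpc4, the inducible poly(A) binding protein, was at 30.2 CPM (43 UMIs) in WT and 37.5 CPM (277 UMIs) in KO spermatogonia-like cells, a log2 ratio of 0.31 (-0.15 to 0.81). It had 2 and 15 UMIs in early spermatocyte-like cells and between 0 and 4 in each later stage of either library. Its level lay in the spermatogonia-like cells, and later stages hold too few UMIs for a direction.

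Paip2, whose protein displaces poly(A) binding proteins from the tail, ran the other way. Its WT level was 366 CPM in spermatogonia-like cells and 304 and 130 CPM in early and late spermatocyte-like cells. It was at 214 CPM in cluster 9, 401 in cluster 6, 648 in mid round, 791 in late round and 1078 in elongating spermatid-like cells. The KO values were 320, 230, 120, 225, 393, 631, 745 and 983 CPM in the same order. Its lowest stage was thus the one in which Pabpc6 was highest, and its highest stage was the one in which Pabpc1 was lowest, in both libraries. Over 20 steps in 2 libraries (40 points that share cells of 2 samples and their totals) the Pearson correlation of log2(CPM + 1) was -0.90 between Paip2 and Pabpc6 and -0.80 between Paip2 and Pabpc1, a description across steps. The log2 ratio of Paip2 in elongating spermatid-like cells was -0.13 (-0.16 to -0.10), and no stage passed the criterion, though with a TMM scaling factor the elongating value was -0.44 and passed it as lower.

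The Y-box genes parted in the last stage. Ybx1, the Y-box protein of most cells, had a WT level of 445 CPM in spermatogonia-like cells and of 552 and 1527 CPM in early and late spermatocyte-like cells. It was at 1430 CPM in cluster 9, 1272 in cluster 6, 1046 in mid round, 1160 in late round and 230 in elongating spermatid-like cells. In KO it was at 563, 503, 1436, 1332, 1276, 1044, 1172 and 913 CPM. Up to the late round spermatids the log2 ratios lay between -0.13 and 0.34, and in elongating spermatid-like cells the ratio was 1.99 (1.95 to 2.04), from 5887 WT and 12479 KO UMIs. That is 3.98 times the WT level. The log2 ratio was 3.21 when cells needed 1000 genes, 3.13 without integration and 1.49 with equal weight per cluster. The 1000 gene minimum kept 12711 of 12768 cells. With that minimum and without integration the cells were clustered and named anew, so the class need not hold the same cells. The class was made up unequally, with 547, 1034 and 845 WT and 482, 559 and 280 KO cells in clusters 5, 0 and 3. WT Ybx1 was at 732, 40.4 and 28.1 CPM in these clusters. The share of elongating spermatid-like cells with a Ybx1 UMI was 39.3% in WT and 82.2% in KO. After thinning each cell to 5729 UMIs it was 33.2% (31.2 to 35.2) of 2201 WT cells and 81.4% (78.9 to 83.6) of 1105 KO cells, at median depths of 8924 and 8388 UMIs before thinning. Ybx1 is expressed in somatic cells too, and the thinned share of Leydig-like cells was 80.5% in WT and 83.9% in KO.

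Ybx3 (MSY4), a testis cold shock protein, had a WT level of 56.1 CPM in spermatogonia-like cells and of 15.7 and 357 CPM in early and late spermatocyte-like cells. It was at 324 CPM in cluster 9, 288 in cluster 6, 226 in mid round, 249 in late round and 78.2 in elongating spermatid-like cells. The KO values were 49.7, 18.2, 447, 456, 397, 310, 358 and 266 CPM. From the late spermatocytes on every KO value was above its WT value, and Ybx3 was past the criterion as higher in 4 of 8 stages, namely cluster 9 (log2 ratio 0.50), cluster 6 (0.46), late round (0.52) and elongating spermatid-like cells. In the last the ratio was 1.77 (1.69 to 1.85), or 3.40 times the WT level, and 1.29 with equal weight per cluster. With the TMM factor the late round value was 0.41 and no longer passed. The share of elongating cells with a UMI was 31.2% in WT and 65.6% in KO before thinning and 25.4% (23.5 to 27.2) and 61.6% (58.7 to 64.5) after. In Leydig-like cells, a somatic class, the thinned share was 13.8% in WT and 13.2% in KO at median depths of 10004 and 7871 UMIs, below both. Other somatic classes held more Ybx3, with 93.7 CPM in WT and 73.0 in KO Sertoli-like cells and 125 and 195 CPM in macrophage-like cells. The WT elongating level, 78.2 CPM, was thus below the WT level of these 2 classes.

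Ybx2, the germ cell Y-box protein, had like levels in the last stage of both libraries. It was at 75.8, 145, 467, 402, 331, 274, 273 and 407 CPM in WT from spermatogonia-like to elongating spermatid-like cells, and at 56.0, 63.0, 438, 376, 340, 256, 286 and 407 CPM in KO. In elongating spermatid-like cells the log2 ratio was 0.00 (-0.05 to 0.05), the gene having 10430 and 5557 UMIs. With the TMM factor it was -0.31 and did not pass the criterion. By cluster the ratio was -0.01 in cluster 5, 0.02 in cluster 0 and 0.28 (0.19 to 0.37) in cluster 3. The level there was 87.0% of the highest stage in WT and 92.9% in KO, whereas Ybx1 was at 15.03% in WT and 63.6% in KO and Ybx3 at 21.9% and 58.3%. Ybx2 passed the criterion as lower in early spermatocyte-like cells, at -1.21 (-1.64 to -0.76), from 74 UMIs in 65 WT cells. Prm1 was at 14415 CPM in those WT cells and 3343 CPM in the KO cells, and without doublets Ybx2 no longer passed, while without integration the ratio was 0.078. The part of RNA from other cells in it was not tested.

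**Figure D3:**
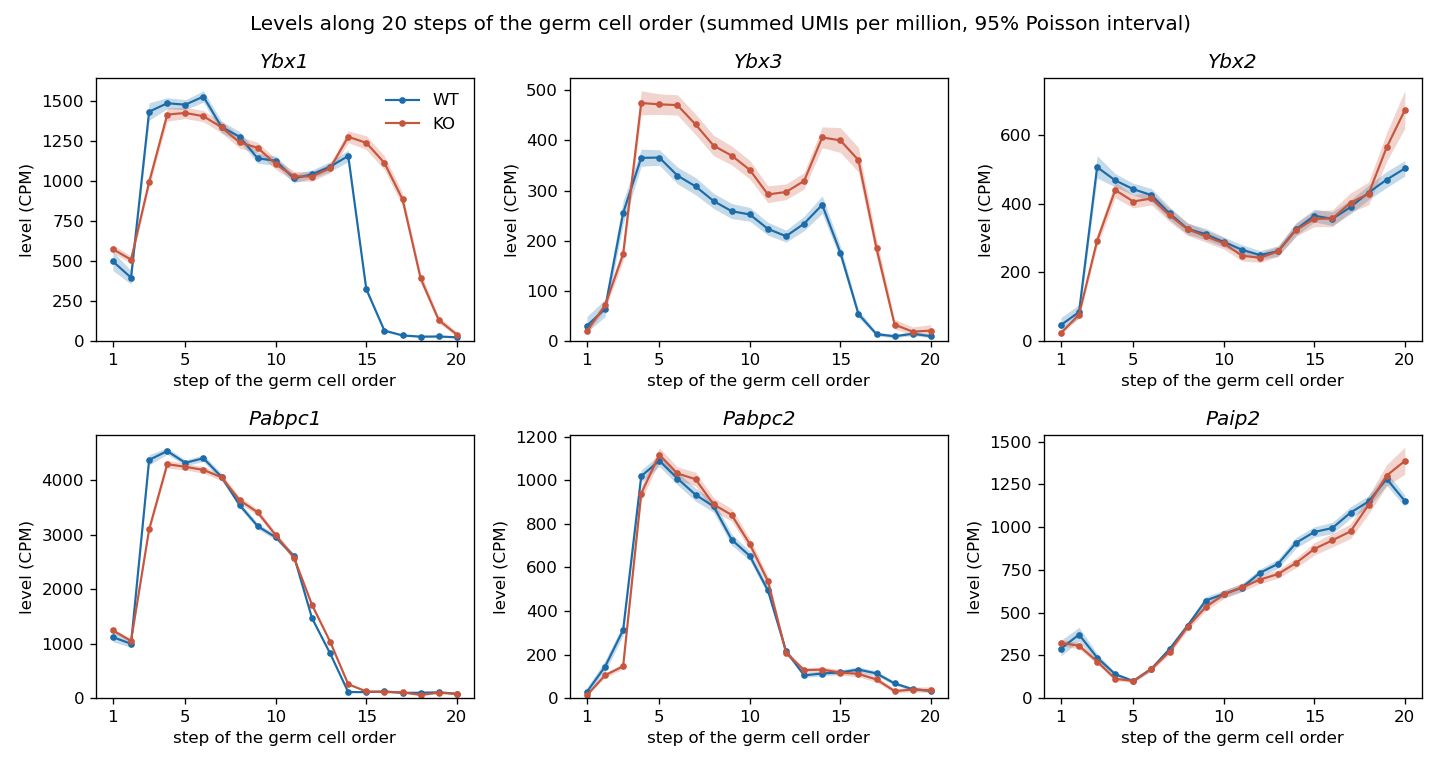
Levels in CPM (vertical axis, from 0) along 20 steps of equal cell number in the germ cell order (horizontal axis) in the WT library (blue) and the KO library (red), with exact Poisson 95% intervals as bands. In step 16 Ybx1 was at 65.3 CPM in WT and 1113 CPM in KO, whereas the Ybx2, Pabpc1 and Paip2 lines stay close together there.

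A finer order gave the levels by step. All 12 germ cell clusters were ordered from the spermatogonia-like cells and cut into 20 steps, in which 3 steps (16 to 18) were mainly the elongating cluster led by Tnp1 and Tnp2, the transition proteins that replace histones. Ybx1 was at 1156 CPM in WT and 1276 CPM in KO in step 14. In step 15 it was at 324 in WT and 1238 in KO, in step 16 at 65.3 and 1113, and in step 17 at 35.3 and 886 CPM. In step 18 it was at 27.6 and 392 CPM, in step 19 at 28.8 and 131, and in step 20 at 23.5 and 40.5 CPM. The last step above 50% of the highest step was thus 14 in WT and 17 in KO, in steps that held 251 to 426 WT and 116 to 291 KO cells. Ybx3 was at 272 and 406 CPM in step 14, 53.9 and 361 in step 16, 13.7 and 185 in step 17 and 9.55 and 32.8 in step 18. Its last step above 50% of the highest was 14 in WT and 16 in KO. The mean place of the cells within step 16 was 77.6% of the order in WT and 77.3% in KO. Each step is a fixed slice of the order of both libraries together, so these means had to lie close. They do not show that the cells were equally advanced. In step 3, where 53.6% of cells were of 1 cluster, Pabpc1 was at 4370 CPM in WT and 3095 in KO. Pabpc6 was at 543 and 258 CPM there, Ybx2 at 506 and 292 and Dazl at 877 and 1962. Paip2, at 237 and 214 CPM, and Boll, at 188 and 169, were closer. Gaps between the libraries were thus not confined to the late steps.

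Ybx2 and Paip2, which were high in these steps, and Pabpc1 and Pabpc2, which were low, lay close together between the libraries in step 16. There Ybx2 was at 356 CPM in WT and 357 in KO, Paip2 at 995 and 923, Pabpc2 at 131 and 111 and Pabpc1 at 123 and 111 CPM. In step 14 Pabpc1 was at 110 CPM in WT and 255 in KO, and in step 20 Ybx2 was at 502 and 672 CPM. In step 18 Pabpc2 was at 67.1 CPM in WT and 32.1 in KO and Pabpc1 at 97.6 and 57.5 CPM. Ybx2, at 432 and 429 CPM, and Paip2, at 1150 and 1131, were close there. Over cluster 0 the log2 ratio was -0.39 (-0.55 to -0.23) for Pabpc2 and -0.06 (-0.21 to 0.09) for Pabpc1. Within each of the 3 elongating clusters Ybx1 was past the criterion: the log2 ratio was 0.80 (0.75 to 0.85) in cluster 5, 4.42 (4.28 to 4.57) in cluster 0 and 1.97 (1.70 to 2.24) in cluster 3. Ybx3 was past it in cluster 5 at 0.86 and in cluster 0 at 3.01, and in cluster 3 it was at 0.99 (0.49 to 1.49) from 92 and 56 UMIs. The cells called doublets were 31 in WT and 2 in KO elongating cells, and without them the class ratios were 2.03 for Ybx1 and 1.78 for Ybx3. In the same class the 23 late spermatocyte-like markers, all detected in both libraries, summed to 2819 and 4013 CPM, and the 7 markers of late round spermatid-like cells to 1968 and 2658 CPM. Pabpc1, at 1081 CPM or more in each stage up to mid round, was at 335 CPM in WT and 459 in KO late round cells. In KO elongating cells it was at 105 CPM. The part of cells or RNA of earlier stages in the Ybx1 and Ybx3 ratios was not tested.

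**Figure D4:**
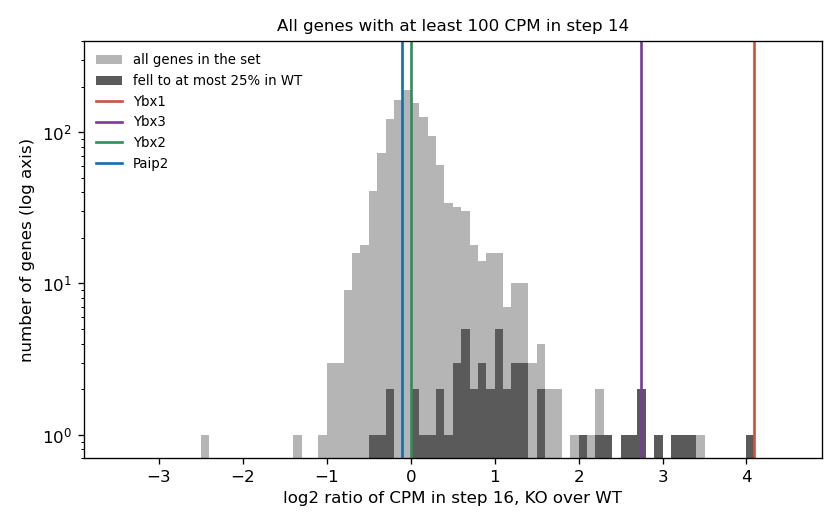
Number of genes (vertical log axis) by log2 ratio of CPM, KO over WT, in step 16 (horizontal axis), for 1296 genes with at least 100 CPM in step 14 on the mean of the libraries, with the 53 genes that were at or under 25% of it in WT step 16 in dark grey. Lines mark Ybx1 at 4.09, Ybx3 at 2.74, Ybx2 near 0 and Paip2 just below it, and Ybx1 is the gene farthest to the right.

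Against all genes, the values of Ybx1 and Ybx3 stood at the edge. Of 1296 genes with at least 100 CPM in step 14, the median log2 ratio in step 16 was 0.00, with quartiles of -0.17 and 0.24. Ybx1 had the highest ratio of these genes in steps 16 and 17, at 4.09 and 4.65, and Ybx3 ranked 8 and 3, at 2.74 and 3.75. In steps 14, 15 and 18 Ybx1 ranked 359, 6 and 2 and Ybx3 ranked 104, 37 and 13, so that the high ranks began after step 14. The 53 genes at or under 25% of their step 14 level in WT step 16 had a median ratio of 1.02, which their choice by a low WT value favours, and nothing is read from it. The steps and the genes were singled out after their values were seen.

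Of the DAZ family members, Dazl marked the early stages and Boll was highest in late spermatocyte-like cells. Dazl was at 1689 CPM in WT and 2110 in KO spermatogonia-like cells and at 2677 and 3390 CPM in early spermatocyte-like cells, with log2 ratios of 0.32 (0.26 to 0.38) and 0.34 (0.26 to 0.43). A Dazl UMI was found in 99.4% of WT and 99.9% of KO spermatogonia-like cells. The late spermatocyte-like level was 42.2 CPM in WT and 112 in KO, 1.58% and 3.31% of its highest stage, and this was its only stage past the criterion (log2 ratio 1.41, 1.27 to 1.55), which it did not pass with thinned cells (1.32). Most of the UMIs came from cluster 11, at 93.3 and 209 CPM (log2 ratio 1.16, past the criterion), and cluster 7 was at 12.5 and 27.9 CPM (1.16, not past it), so that the class ratio was above that of either cluster. With the TMM factor Dazl was also past the criterion as higher in early spermatocyte-like cells, at 0.48. In late spermatocyte-like cells the 20 spermatogonia-like markers also summed to 264 and 536 CPM, with Upp1 at 0 in WT. The 15 early spermatocyte-like ones, all detected, summed there to 1971 and 3074 CPM. The part of RNA from such cells in the late spermatocyte-like Dazl ratio was not tested. The share of late spermatocyte-like cells with a UMI was 26.3% in WT and 36.1% in KO, and 13.8% and 24.0% after thinning, at median depths of 16747 and 14684 UMIs. In Sertoli-like cells, which do not express the gene, it was 17.02% and 32.0% after thinning, at 8326.5 and 9011.5 UMIs, and in Leydig-like cells 0 of 87 WT cells (exact interval 0 to 4.15%) and 8.91% of KO cells. The late spermatocyte-like shares lay below the Sertoli-like and above the Leydig-like ones, and no change in expression is read from them. From cluster 9 on Dazl was at 21.98 CPM or less in WT and 37.6 CPM or less in KO, against 43.9 and 101 CPM in Sertoli-like cells.

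Boll, the DAZ family member of meiosis and the spermatid, was at 66.7, 163 and 213 CPM in WT and 64.7, 133 and 201 CPM in KO from spermatogonia-like to late spermatocyte-like cells. It was at 157 and 173 in cluster 9, 128 and 138 in cluster 6 and 71.7 and 77.0 in mid round spermatid-like cells, so that the libraries ran close up to the mid round spermatids. In late round spermatid-like cells it was at 9.16 and 24.3 CPM, a log2 ratio of 1.41 (0.91 to 1.93) from 48 and 115 UMIs, and in elongating spermatid-like cells at 8.97 and 16.7 CPM. The share of late round cells with a Boll UMI was 13.3% and 27.9%, and after thinning 4.70% and 11.7%, against 6.38% and 6.08% of Sertoli-like cells. Neither stage passed the criterion. The change from Dazl to Boll lay between the early and late spermatocytes in both libraries, Dazl being highest in early spermatocyte-like and Boll in late spermatocyte-like cells.

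In the germ cells pooled over stages, 2 of the 9 members with enough cells, Dazl and Ybx3, passed the criterion as higher in KO and 0 as lower. Among all 4605 genes tested, 11.5% were higher and 5.84% lower, or 528 and 269 genes, which the TMM factor, a shift of 0.35, turned to 244 and 660. The pooled ratio of Dazl, 2.48 (2.44 to 2.53), stood beside an unequal makeup of the libraries, with 156 spermatogonia-like cells in WT and 916 in KO. With equal weight per class it was 0.36 and no longer passed, with equal weight per step it was 0.53, and without the 2 earliest stages it was 1.25 and did not pass. The pooled ratio of Ybx3, 0.56 (0.53 to 0.59), was 0.54 and 0.57 under the same weights, and 0.21 with the TMM factor, when it did not pass. Ybx1 was at 0.24 pooled and did not pass, but was at 0.33 and passed without the 2 earliest stages. In pooled cells fewer cells of a stage and less RNA per cell cannot be told apart.

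Genes of related lists were compared in the last and the first stage. Of 75 genes in 8 lists, 74 were in the tables, and 24 had enough cells in the elongating spermatid-like stage. There 4 of the 24 passed the criterion, 2 in each direction, beside 11.7% of all genes. They were Papolb, the testis poly(A) polymerase, at 183 CPM in WT and 293 in KO (log2 ratio 0.68), and Gtsf1, a piRNA pathway protein, at 264 and 401 CPM (0.60), both higher. Larp1, a translation regulator that binds the poly(A) binding protein, was at 161 and 93.2 CPM (-0.79), and Smcp, a stored message for the sperm mitochondrial capsule, at 18061 and 14069 CPM (-0.36), both lower. The median over the list members with enough cells was 0.03 beside 0.11 for all genes. The genes with the largest ratios and at least 100 UMIs were Btg4, a deadenylase adaptor, with 359 and 448 UMIs (1.23), Papola at 26.8 and 52.4 (0.97), Cnot2 at 2.53 and 4.90 (0.95), Cpeb4 at 7.29 and 13.1 (0.85) and Larp1. Of the deadenylase list 0 of 1 with enough cells passed, and of the list of other poly(A) binding proteins none had enough cells.

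In spermatogonia-like cells 1 of the 47 related genes with enough cells was higher and 6 were lower, beside 45 higher and 102 lower (3.45%) of all 4261 genes tested. The median was 0.01 beside 0.05 for all genes. Tsn (translin) was higher, at 295 and 449 CPM (0.60). The lower genes were Lsm14b (75.1 and 38.2 CPM, -0.98) and 5 of the 7 measured stored messages of the elongating spermatid: Prm1, Prm2, Tnp1, Tnp2 and Smcp. Prm1 was also lower in KO in each stage from spermatogonia-like cells to cluster 6, in which it is not transcribed, and the part of RNA from other cells in this was not tested. Nanos3 (7.02 and 23.5 CPM, 1.75), Lin28a (9.12 and 22.1, 1.27) and Odf1 (74.4 and 40.7, -0.87) had the other largest ratios there. In the elongating stage, where these messages belong, 1 of 8 was past the criterion.

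For each member the 2 genes most alike along the steps were picked from 7382 genes with at least 50 CPM in a step. Such a choice favours high values. Over 40 points the Pearson correlations of log2(CPM + 1) were 0.99 for Pabpc1 with Irak1bp1 and Ndufc1, 0.98 and 0.97 for Pabpc2 with Abcc3 and Tex22, and 0.98 for Pabpc4 with Serpine2 and Gcat and for Pabpc6 with Pnma1 and Kdm4d. They were 0.98 for Paip2 with Acsl1 and Akap1, for Dazl with Smchd1 and Ptma and for Boll with Cox7b2 and Osgepl1. For Ybx2 they were 0.98 with Smim24 and 0.97 with Fabp9. The values for Ybx1, 0.94 with Mael and 0.92 with Btbd1, and for Ybx3, 0.95 with 4930504O13Rik and 0.94 with Stt3b, were the lowest. Between members the highest were 0.94 for Pabpc1 with Boll and 0.90 for Ybx1 with Ybx3. The points share 2 libraries, so these values describe profiles and carry no p. Pabpc4 had at most 3 UMIs in any step from step 4 on, so its values rest on the first steps.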

How the data were processed

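Single cells from WT and KO testes were captured with the GEXSCOPE kit. The authors aligned reads with STAR 2.5.3a and counted them with featureCounts 1.6.2, per the labels, and deposited counts of UMIs per gene and barcode without normalization. The methods name a human build, GRCh38, although the symbols are those of the mouse. Positions here are from GENCODE vM21 on GRCm38. Both tables were integrated in Seurat 5.3.0 (R 4.3.3) with the study's settings: over 500 genes per cell, 2000 variable features, 20 anchor dimensions, 30 components and resolution 0.3. Members and related genes were removed from the features, 8 genes in all. The 16 clusters were named from markers taken in part from the study's tables of these libraries, by the rule that at least 3 markers had a UMI in 10% of cells and were 2 times higher than elsewhere. Doublets (Scrublet in scanpy 1.11.5, 243 WT and 348 KO cells) were kept. The germ cell order was a shortest path over 15 nearest neighbours. The planned plain path joined spermatogonia to late clusters through bridging cells, so edges were restricted to a spanning tree of the clusters, a change made after seeing the data. Sums have exact Poisson and ratios exact conditional 95% intervals, thinned shares exact Clopper-Pearson intervals (Python 3.11.15, scipy 1.17.1). TMM factors are from edgeR 4.0.16. No test was made between genotypes. The size criterion was tested on simulated data. The members, lists and rules were chosen with earlier results of these data known. Named genes are all members, related genes past the criterion or with the 5 largest ratios at 100 UMIs in the first and last stage, and the 2 most similar genes per member. Ybx1 and Ybx3 by step and the set of 1296 genes were singled out after their values were seen. Alternatives were 1000 genes per cell, resolution 0.8, members kept among the features, no integration, doublets removed, totals that leave out genes of the mitochondrial genome and of ribosomal proteins, the TMM factor, a CPM ratio of 2, a 10% or no cell filter, thinned cells (5729 UMIs, leaving out 362 WT and 914 KO cells) and equal weights.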

Additional observations from a re-analysis of the deposited data

How the results depend on the processing

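No result rests on replicates, and no paired analysis was possible because each genotype had 1 library. Of 652 ratios of members recomputed under the alternatives, 513 stayed within the counting interval of the value given, 138 moved outside it and 1 reversed among those past the criterion, Ybx2 in early spermatocyte-like cells at 0.078 without integration. Of 62 recomputed counts, 51 stayed within 1.5 times. The 1 pair lower in KO became 0 with 1000 genes per cell, with members kept among the features, without integration, without doublets, with thinned cells and with the 2 earliest stages left out (the last chosen after seeing the data), and 2 with the TMM factor. In pooled germ cells the 2 members higher in KO became 1 with the TMM factor, with a CPM ratio of 2 and with equal weight per class, and the 0 lower became 2 with the TMM factor (Paip2 and Ybx2). The pairs higher in KO ranged from 4 with a CPM ratio of 2 to 9 with 12 clusters as stages, the latter chosen after seeing the data. In elongating spermatid-like cells Ybx1 ranged from 1.49 with equal weight per cluster, chosen after seeing the data, to 3.21 with 1000 genes per cell. Ybx3 ranged from 1.29 to 2.15 under the same settings. With 1000 genes per cell the cells were clustered anew, so the class was redrawn. Both genes were past the criterion in each setting in which it was applied. Clusters 9 and 6 were not matched one to one under other clusterings, but each of these had early round spermatid-like clusters in which Ybx3 passed as higher, at 0.44 to 0.50. Few WT cells limit the spermatogonia-like and early spermatocyte-like stages.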

Other observations

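The somatic classes also held UMIs of the members, at levels that rest on few WT cells. In Sertoli-like cells (52 WT and 488 KO) Ybx2 was at 313 CPM in WT and 79.6 in KO, Paip2 at 666 and 290, Pabpc2 at 104 and 48.9 and Dazl at 43.9 and 101 CPM. The 39 elongating spermatid-like markers, all detected in both libraries, summed there to 49629 CPM in WT and 14274 in KO, and the 20 spermatogonia-like ones to 155 CPM in WT (11 detected) and 307 in KO (19 detected). In macrophage-like cells (24 WT and 71 KO) Dazl was at 19.7 CPM in WT, from 6 UMIs, and at 296 CPM in KO, and the spermatogonia-like markers summed to 138 and 973 CPM. In Leydig-like cells (94 WT and 1166 KO) Ybx1 was at 476 and 394 CPM and Pabpc1 at 734 and 438 CPM. The part of RNA from germ cells in these values was not tested.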
